A study of Mus musculus with 8 samples.

Results

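The genes described here encode 8 cathepsins, the proteases of the lysosome, and 2 cystatins, which inhibit many of them. They were taken by name from a table of 47493 genes, so 10 of 47493 genes entered, and each name matched 1 entry: *Ctsa*, *Ctsb*, *Ctsc*, *Ctsd*, *Ctsh*, *Ctsl*, *Ctss*, *Ctsw*, *Cst3* and *Cst7*. Their RNA was compared between IL-18Rαhi-enriched endogenous CD8+ T cells and the column flow-through of the same mice, to learn how RNA of lysosomal proteases and of their inhibitors differed between the fractions. All 10 genes passed the filter for testing, which was a mean of 1 FPKM over the libraries. FPKM is a fragment number scaled by transcript length and by the mapped fragments of the library, so levels of different genes are compared per length.

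Each of 4 female C57BL/6 mice, 6 to 8 weeks old, gave 1 library of each fraction. All of them carried B16F10 melanoma (200000 cells on day 0) and had received 300 mg/kg cyclophosphamide on day 3, 2000000 Pmel-1 cells on day 5, 10000 IU of recombinant human IL-2 on each of 3 days, and 200 μg of the CD4-depleting antibody GK1.5 in each of 3 weekly doses from day 10. Pmel-1 cells are CD8+ T cells that carry a transgenic receptor for the melanoma antigen gp100 and the congenic antigen Thy1.1. On day 25, Thy1.1-negative CD8+ T cells were isolated from inguinal lymph nodes and spleen, and cells with much IL-18Rα, a chain of the receptor for interleukin-18, were held on a magnetic column. Cells that ran through (IL18Rαhi-depleted) served as the control, so both fractions shared every treatment and no untreated mice entered the comparison. The fractions are bulk preparations made with beads, and the flow-through is a mixture defined by what the column did not hold.

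Cathepsins are made as inactive precursors and become active in the acid lumen of endosomes and lysosomes. Most are cysteine proteases, while cathepsin D is an aspartic protease and cathepsin A a serine carboxypeptidase. In cytotoxic lymphocytes the lytic granule is a lysosome-related compartment, in which cathepsin C removes the N-terminal dipeptide that keeps granzymes inactive. In antigen-presenting cells, cathepsins cut the invariant chain from class II molecules. Cystatin C is a secreted inhibitor of cysteine cathepsins, and cystatin F, the product of *Cst7*, is directed to the endolysosomes of immune cells, where it can inhibit cathepsins C, H and L.

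Depth was estimated at 14588000 to 17701000 fragments per library, and 11706 to 12288 genes per library reached 1 FPKM. The gene of the sorted receptor, *Il18r1*, rose from 30.6 ± 6.96 to 110.8 ± 3.87 FPKM (mean ± SD, n = 4), with a log2 fold change of 1.85 (limma adjusted p = 0.000291), which fits the labels. Flow-through replicate 1 stood apart. The summed level of 8 CD8 T-cell marker genes (*Cd3d*, *Cd3e*, *Cd3g*, *Cd247*, *Cd2*, *Cd8a*, *Cd8b1* and *Lck*) was 1337 FPKM in it, 2144 to 2548 FPKM in the remaining flow-through libraries and 2542 to 2724 FPKM in the enriched ones. None of the 8 markers passed the test (limma, with 2 higher at an unadjusted p under 0.05 and 1 higher with the mouse as a block). Erythroid marker genes summed to 1346 FPKM in that library and to 267 to 712 FPKM in the rest of the flow-through. They summed to 1263 FPKM in enriched replicate 1 too, and to 133 to 440 FPKM in the other enriched libraries. Each fit is therefore also given under T-cell scaling, in which every library was divided by the geometric mean of the 8 CD8 T-cell markers. This moved the median difference over all tested genes, on the log2 scale, from -0.02 to -0.32.

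*Ctsb*, *Ctsd*, *Ctsw* and *Cst3* rose in the IL-18Rαhi-enriched fraction and *Ctsl* fell, while *Ctsa*, *Ctsc*, *Ctsh*, *Ctss* and *Cst7* did not pass the test (limma on log2(FPKM + 1), Benjamini-Hochberg adjusted p under 0.05 over 12166 genes). The 4 higher members stand beside 14.1% of all tested genes that were higher, and the 1 lower member beside 13.7% that were lower. With the mouse as a block, 8 members were higher and 1 was lower, beside 22.2% and 22.7% of all genes. The block without both libraries of mouse 1 gave 7 higher members and 1 lower, beside 20.7% and 20.3%. With limma under T-cell scaling no member was called higher (1 at an unadjusted p under 0.05) and 1 was lower, beside 4.29% and 7.62% of all genes, and with scaling and block together *Cst3* was higher and *Ctsl* lower, beside 5.18% and 18.2%. The call of *Ctsl* was made without and with the block, as deposited and under T-cell scaling, and that of *Cst3* in 3 of these 4 fits. The median log2 fold change of the 10 members was 0.56 as deposited and 0.22 under T-cell scaling.

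The libraries of the fractions did not overlap for 4 members that were higher and 1 that was lower in the enriched fraction, beside 16.4% and 15.9% of all genes. The enriched library exceeded the flow-through library of its mouse in 4 of 4 mice for 8 members and lay below it in 4 of 4 mice for *Ctsl*, beside 29.2% and 30.6% of all genes, and *Cst7* was the remaining member. The SD of log2(FPKM + 1) had a median over the members of 0.44 within the flow-through, 0.19 within the enriched fraction and 0.23 for the difference within a mouse.

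**Figure D1:**
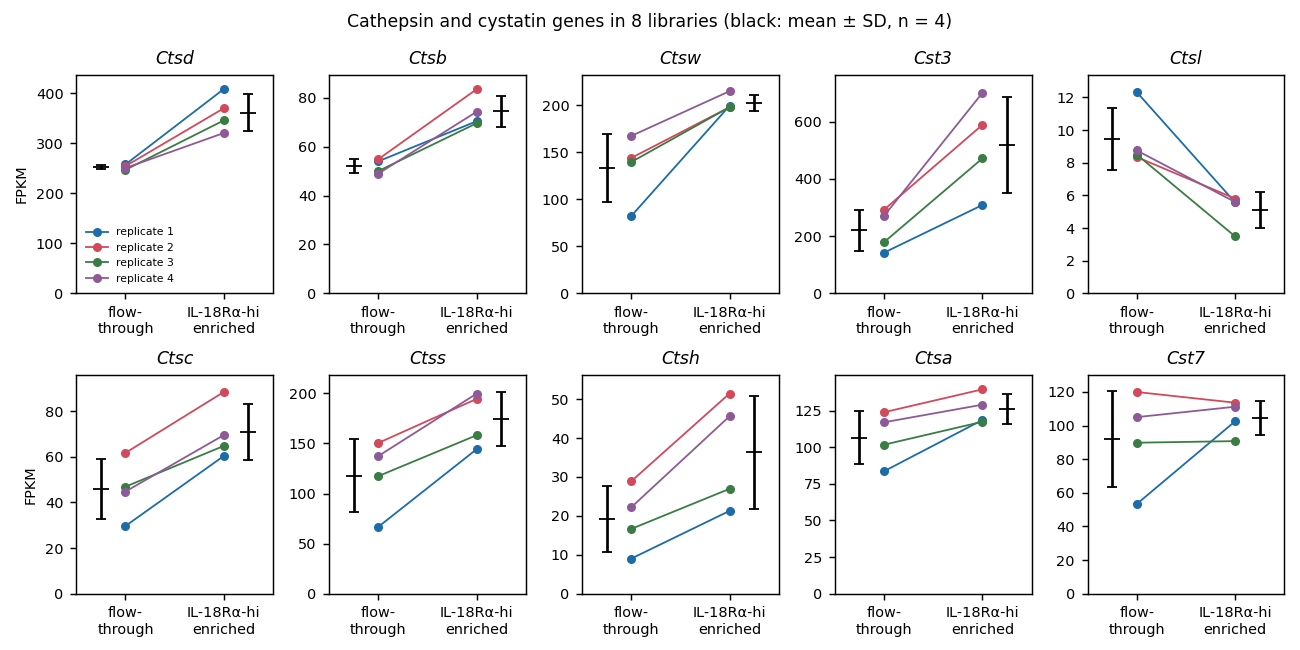
FPKM of each of the 10 genes (y axis, from 0) in the flow-through and the IL-18Rαhi-enriched library of each mouse, joined by a line, with black marks for the mean ± SD of 4 libraries. *Ctsl* is the only gene whose lines all fall, from 8.35 to 12.3 FPKM down to 3.49 to 5.81 FPKM, and flow-through replicate 1 has the lowest value for *Ctsw*, *Cst3*, *Ctsc*, *Ctss*, *Ctsh*, *Ctsa* and *Cst7*.

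The aspartic protease cathepsin D, a main endopeptidase of lysosomes, had the steadiest flow-through level of all members. *Ctsd* was at 258, 254, 247 and 250.5 FPKM in flow-through replicates 1 to 4 and at 408, 369.9, 346 and 320.5 FPKM in the enriched libraries. All enriched libraries lay above all flow-through libraries, and the replicate that stood apart in T-cell markers did not do so here. The mean rose from 252 ± 4.63 to 361 ± 37.4 FPKM, a log2 difference of 0.51 (limma, SE 0.08, adjusted p = 0.00427). Under T-cell scaling the difference was 0.17 on the log2 scale (limma adjusted p = 0.563), so the call was lost. Median scaling kept it, with a difference of 0.53 (limma adjusted p = 0.00516). The gene, protein-coding like all 10, lies on mm10 chromosome 7, 142375911 to 142388038, minus strand, and an annotated coding gene, *Gm49369*, overlaps it on the same strand, so reads of the pair may have been divided.

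*Ctsa* (chromosome 2, 164832873 to 164841032, plus strand, overlapped by *Neurl2* and *Pltp* on the opposite strand) encodes cathepsin A, a serine carboxypeptidase that also protects β-galactosidase and neuraminidase 1 in a complex. It was at 83.6, 123.9, 101.7 and 117 FPKM in the flow-through and at 118.6, 139.5, 117.4 and 129.1 FPKM in the enriched libraries. The fractions overlapped, although the enriched library was the higher one in every mouse. The difference on the log2 scale was 0.25 (limma, SE 0.13, adjusted p = 0.169), or with the mouse as a block limma adjusted p = 0.0378, and without both libraries of mouse 1 the blocked value was 0.0562. The sign turned under T-cell scaling, to -0.08. Of its partners, *Glb1* rose (24.9 ± 3.26 to 31.3 ± 2.60 FPKM, log2 fold change 0.33, limma adjusted p = 0.0479, not called under T-cell scaling), and *Neu1* was at 22.4 ± 4.92 and 20.8 ± 2.76 FPKM (limma adjusted p = 0.73).

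Among the cysteine endopeptidases, *Ctsb* and *Ctsl* moved in opposite directions. Cathepsin B is a broadly expressed protease with endo- and exopeptidase activity. *Ctsb* was at 54, 54.8, 50 and 49 FPKM in the flow-through and at 70.4, 83.5, 69.6 and 74.3 FPKM in the enriched libraries. The lowest enriched library exceeded the highest flow-through library, and both groups were narrow. The difference on the log2 scale was 0.51 (limma, SE 0.08, adjusted p = 0.00384), and under T-cell scaling it was 0.17 (limma adjusted p = 0.576). *Ctsb* (chromosome 14, 63122462 to 63145923, plus strand) overlaps *Fdft1* on the opposite strand.

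Cathepsin L is an endopeptidase that cuts the invariant chain in thymic epithelium and serves general protein turnover elsewhere. *Ctsl* (chromosome 13, 64359337 to 64370890, minus strand) was at 12.3, 8.35, 8.50 and 8.75 FPKM in the flow-through and at 5.57, 5.81, 3.49 and 5.59 FPKM in the enriched libraries. The processed pseudogene *Gm49230* overlaps *Ctsl* on the same strand, and the antisense gene *Gm47123* overlaps it on the opposite strand. Every enriched library was below every flow-through library, with 1 high library in the flow-through and 1 low library in the enriched fraction. The mean fell from 9.48 ± 1.90 to 5.11 ± 1.09 FPKM, a log2 difference of -0.78 (limma, SE 0.17, adjusted p = 0.0119), and leaving out any 1 library gave -0.84 to -0.64 with the call kept in 8 of 8 fits. Under T-cell scaling the log2 fold change was -1.08 (limma adjusted p = 0.0454). The enriched library had 0.41 to 0.70 of the level of its mouse's flow-through library. The erythroid marker sum was 1346, 267, 712 and 299.7 FPKM in the flow-through and 1263, 133, 440.1 and 166 FPKM in the enriched libraries, so the flow-through library highest in *Ctsl* was also the highest in erythroid RNA, whereas enriched replicate 1 was about as rich in erythroid RNA and low in *Ctsl*. Of 7 erythroid markers none passed (limma, 1 lower at an unadjusted p under 0.05 and 4 lower with the block), and the part of this RNA in the result was not tested.

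Cathepsin S is the cysteine protease that frees class II molecules of the invariant chain in B cells and dendritic cells. *Ctss* (chromosome 3, 95526786 to 95556403, plus strand) was at 66.7, 150.5, 117 and 137 FPKM in the flow-through and at 144, 194, 158 and 199.7 FPKM in the enriched libraries. The processed pseudogene *Hmgb1-ps5* overlaps *Ctss* on the same strand. Flow-through replicate 2 lay above enriched replicate 1, so the fractions overlapped, but each mouse had the higher value in its enriched library. The difference on the log2 scale was 0.61 (limma, SE 0.24, adjusted p = 0.0952), and the limma adjusted p was 0.00874 with the mouse as a block. The difference was 0.27 under T-cell scaling. In these bulk samples a change in the number of cells of a type and a change in RNA per cell cannot be told apart.

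Of the cysteine cathepsins, neither cathepsin C nor cathepsin H, which act as exopeptidases, passed the test without the block. Cathepsin C, or dipeptidyl peptidase I, activates granzymes. *Ctsc* (chromosome 7, 88278085 to 88310888, plus strand) was at 29.7, 61.7, 46.9 and 44.8 FPKM in the flow-through and at 60.4, 88.4, 64.8 and 69.5 FPKM in the enriched libraries. The non-coding gene *Gm26522* overlaps *Ctsc* on the opposite strand. The fractions overlapped by 1 flow-through library, replicate 2, which exceeded enriched replicate 1. The log2 fold change of 0.65 (SE 0.21) narrowly missed the threshold (limma adjusted p = 0.0508), while the block gave limma adjusted p = 0.00304 and median scaling 0.045. The difference was 0.32 under T-cell scaling. Of the granule proteins it acts on, granzyme A (*Gzma*) rose from 14.4 ± 4.6 to 69.2 ± 22.9 FPKM (log2 fold change 2.19, limma adjusted p = 0.0016) and granzyme B (*Gzmb*) from 66.6 ± 23.2 to 231.8 ± 38.0 FPKM (1.85, limma adjusted p = 0.00262).

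Cathepsin H is an aminopeptidase. *Ctsh* (chromosome 9, 90054152 to 90076089, plus strand) was at 8.99, 28.8, 16.6 and 22.2 FPKM in the flow-through and at 21.3, 51.4, 26.9 and 45.6 FPKM in the enriched libraries. Levels ranged 3.21-fold within the flow-through and 2.42-fold within the enriched fraction, and mice ranked alike in both. The enriched library had 1.62 to 2.36 times the level of the flow-through library of its mouse. Without the block the log2 fold change of 0.91 (SE 0.38) did not pass (limma adjusted p = 0.106), and with it the limma adjusted p was 0.000763. The difference was 0.59 under T-cell scaling, with no call in either fit.

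Cathepsin W, or lymphopain, is a cysteine protease found mainly in CD8+ T cells and NK cells. *Ctsw* was at 82.1, 143.9, 139.5 and 167 FPKM in the flow-through and at 199.4, 197.9, 198 and 215 FPKM in the enriched libraries. The enriched libraries were nearly equal and all of them exceeded the flow-through, in which replicate 1 was far the lowest. The difference on the log2 scale was 0.65 (limma, SE 0.20, adjusted p = 0.0397). Among 8 fits with 1 library removed, 5 lost the call (without flow-through replicate 3 or any of the 4 enriched replicates, limma adjusted p 0.0709 to 0.0975). T-cell scaling also ended it, with a difference of 0.31 (limma adjusted p = 0.147). *Ctsw* (chromosome 19, 5465043 to 5468507, minus strand) overlaps *Fibp* on the opposite strand, and the software's defaults did not use strand.

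Of the inhibitors, cystatin C moved most among the 10 genes. *Cst3* (chromosome 2, 148871722 to 148875692, minus strand) was at 142, 292, 179 and 271 FPKM in the flow-through and at 309, 589, 471 and 700.5 FPKM in the enriched libraries. The lowest enriched library lay only slightly above the highest flow-through library, yet the enriched library had 2.02 to 2.64 times the level of the flow-through library of its mouse. The mean rose from 221 ± 71.9 to 517 ± 168 FPKM, a log2 difference of 1.22 (limma, SE 0.30, adjusted p = 0.0193), or limma adjusted p = 0.000262 with the mouse as a block. Without flow-through replicate 3, enriched replicate 2 or enriched replicate 4 the limma adjusted p was 0.0576, 0.0577 and 0.0544. Under T-cell scaling the log2 fold change was 0.88 (limma adjusted p = 0.0536).

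Cystatin C is produced abundantly by dendritic cells and macrophages, so markers of these cells are given beside it. Of 9 conventional dendritic-cell markers, 6 rose, and their summed level was between 24.6 and 38.8 FPKM in the flow-through and between 51.3 and 112 FPKM in the enriched libraries. Of 10 macrophage and monocyte markers tested out of 11, 6 rose, with sums of 116 to 396 and 383 to 897 FPKM. *Lyz2* alone gave 99.0 to 347 and 338 to 811 FPKM of these sums. Under T-cell scaling 5 dendritic-cell and 3 macrophage and monocyte markers were called higher, or 7 and 8 with the mouse as a block too. No marker of either list was at 0 in all libraries. *Zbtb46*, on the dendritic-cell list, was lower in mean, at 4.70 ± 1.82 and 3.70 ± 0.43 FPKM (log2 fold change -0.23, limma adjusted p = 0.413). *Flt3*, a cytokine receptor of dendritic cells, was at 4.11 ± 2.0 and 10.3 ± 3.57 FPKM (log2 fold change 1.18, limma adjusted p = 0.0327), and *Lyz2*, the lysozyme of myeloid cells, at 197 ± 108 and 506 ± 222 FPKM (1.41, limma adjusted p = 0.0342). The part of dendritic and myeloid cells in the levels of *Cst3*, *Ctsh* and *Ctss* was not tested.

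Cystatin F RNA did not pass the test. *Cst7* (chromosome 2, 150570415 to 150578944, plus strand) was at 53.3, 119.9, 89.8 and 105 FPKM in the flow-through and at 102.5, 113.6, 90.7 and 111.2 FPKM in the enriched libraries. The fractions overlapped, and flow-through replicate 2 was the highest library of all. The enriched library had 1.92 times the flow-through level in mouse 1 and 0.95 to 1.06 times in the other mice. The log2 fold change was 0.24 (SE 0.23, 95% interval -0.28 to 0.76, limma adjusted p = 0.461, with the block 0.281), and with T-cell scaling it was -0.10. Leaving out flow-through replicate 1 gave -0.0009.

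**Figure D2:**
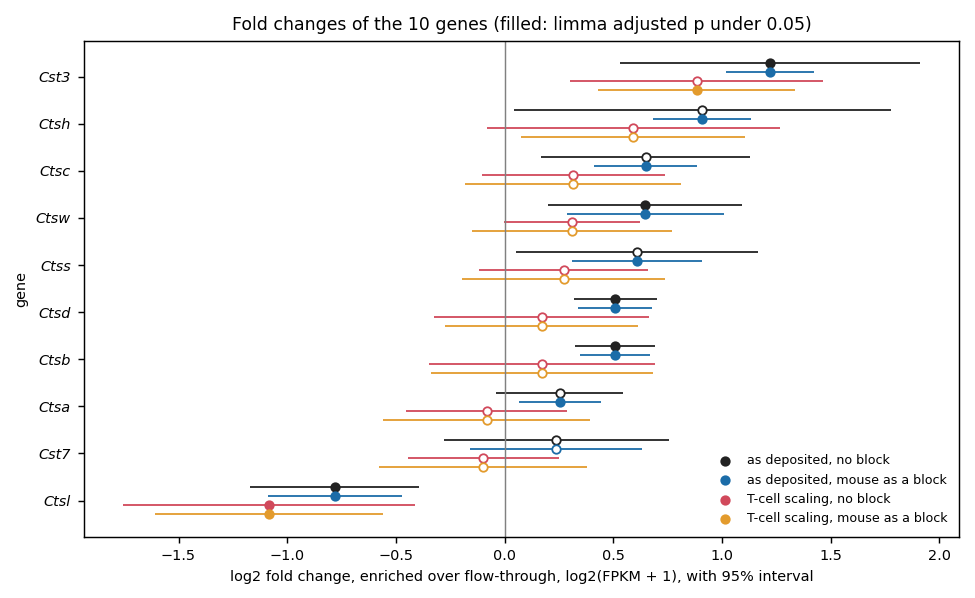
Log2 fold change of each gene (x axis, log2(FPKM + 1), enriched minus flow-through) with its 95% interval under 4 fits, filled where the limma adjusted p was under 0.05. Intervals of *Ctsh*, *Cst3* and *Ctss* shorten with the mouse as a block, T-cell scaling moves every gene to the left, and *Ctsl* stays filled in each fit.

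Because the ratio of a pair of genes within a library does not depend on scaling between libraries, cystatin F was also set against proteases it can inhibit and against cystatin C. The ratio *Cst7*/*Ctsc* was 1.80, 1.94, 1.91 and 2.35 in the flow-through and 1.70, 1.28, 1.40 and 1.6 in the enriched libraries. All enriched libraries lay below all flow-through libraries, and the mean ratio fell from 2.0 ± 0.24 to 1.5 ± 0.19 (log2 difference -0.42). The ratio *Cst7*/*Ctsl* was 4.33, 14.4, 10.6 and 12 in the flow-through and 18.4, 19.6, 26 and 19.9 in the enriched libraries, with no overlap and a log2 difference of 1.14. Cystatin F RNA was therefore lower relative to cathepsin C RNA and higher relative to cathepsin L RNA in the enriched fraction.

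The ratio of cystatin C to cystatin F RNA, *Cst3*/*Cst7*, was 2.67, 2.44, 1.99 and 2.58 in the flow-through and 3.01, 5.19, 5.20 and 6.3 in the enriched libraries. Mouse 1 had a small rise and the other mice had ratios above 5 in the enriched fraction, and the log2 difference was 0.98. Each of the 3 ratios gave an exact two-sided permutation p = 0.0286, the smallest that 70 arrangements allow, and 0.0286 after Benjamini-Hochberg adjustment over the 3. All 4 mice changed in the same direction in each ratio, and exact sign flips within mice gave p = 0.125, the smallest possible with 4 mice. These ratios combine genes whose levels are described above and are not separate evidence.

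**Figure D3:**
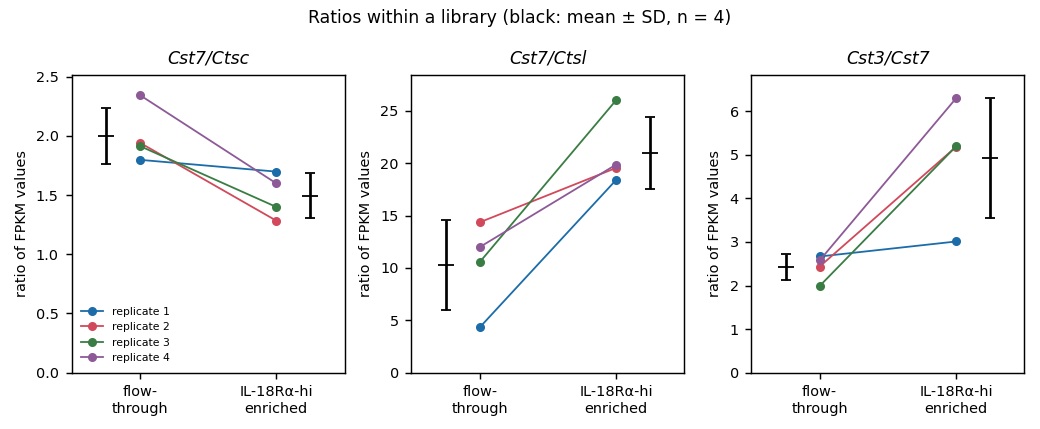
Ratio of FPKM values within a library (y axis, from 0) for *Cst7*/*Ctsc*, *Cst7*/*Ctsl* and *Cst3*/*Cst7* in the flow-through and enriched library of each mouse, joined by a line, with black marks for the mean ± SD of 4 libraries. The first ratio falls in every mouse, from a mean of 2.0 to 1.5, and the other ratios rise, from 10.3 to 21 and from 2.42 to 4.92.

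Members differed in level by more than an order of magnitude. In the flow-through the order of mean FPKM was *Ctsd* (252), *Cst3* (221), *Ctsw* (133), *Ctss* (118), *Ctsa* (106.6), *Cst7* (92.0), *Ctsb* (51.9), *Ctsc* (45.8), *Ctsh* (19.2) and *Ctsl* (9.48). Only *Ctsc* and *Ctsh* were neighbours in this order whose libraries did not overlap. In the enriched fraction it was *Cst3* (517), *Ctsd* (361), *Ctsw* (203), *Ctss* (174), *Ctsa* (126), *Cst7* (104.5), *Ctsb* (74.4), *Ctsc* (70.8), *Ctsh* (36.3) and *Ctsl* (5.11), and here only *Cst3* and *Ctsd*, *Ctsw* and *Ctss*, and *Ctsb* and *Ctsc* overlapped. The top places were thus exchanged between *Ctsd* and *Cst3*, and the rest of the order was the same in both fractions. The 10 genes together made up 790.4 to 1238 FPKM in the flow-through and 1440 to 1871 FPKM in the enriched libraries.

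**Figure D4:**
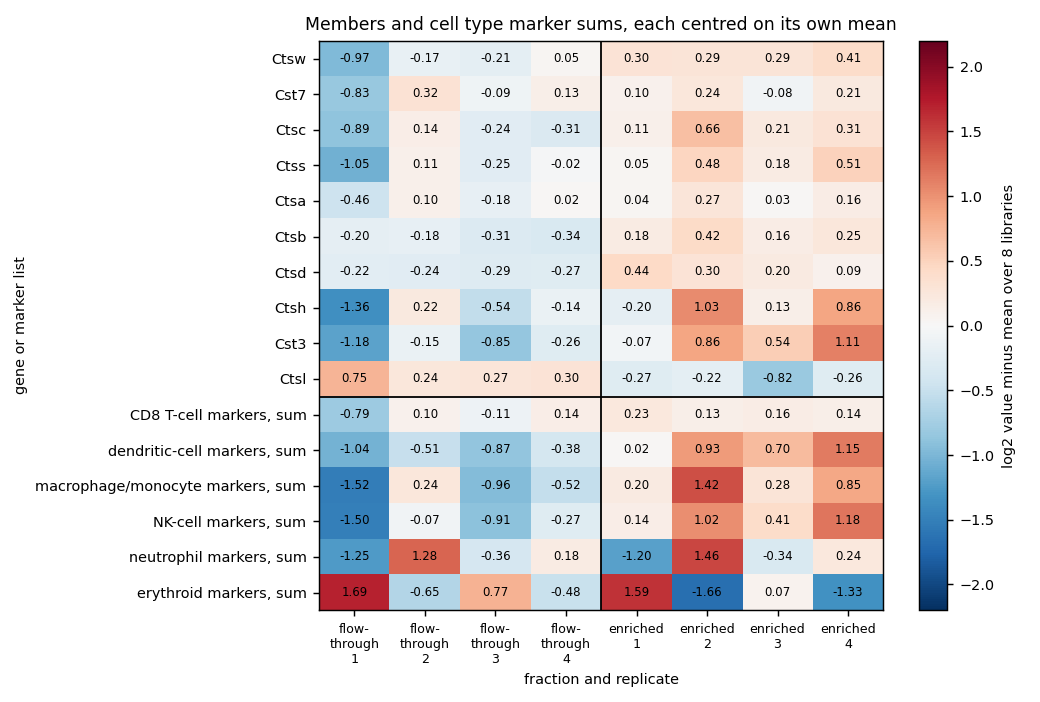
Log2 level of the 10 genes and of summed cell type markers (rows) in each library (columns), as the difference from the row's mean over 8 libraries, in log2 units. *Ctsd* and *Ctsb* split the fractions evenly. *Ctsw*, *Cst7*, *Ctsc*, *Ctss*, *Ctsa*, *Ctsh* and *Cst3* are all lowest in flow-through replicate 1. So are the marker sums of CD8 T cells, dendritic cells, macrophages, NK cells and neutrophils, but not that of erythroid cells. *Ctsl* is the gene with positive values in the flow-through and negative values in the enriched libraries.

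Profiles over the 8 libraries, each centred on its own mean, were compared by their root-mean-square distance in log2(FPKM + 1). The closest members were *Ctsb* and *Ctsd* (0.12), followed by *Ctsc* and *Ctss* (0.15), *Ctss* and *Ctsw* (0.16) and *Cst7* and *Ctsa* (0.17), and the farthest were *Cst3* and *Ctsl* (1.14). Even so, 96 tested genes lay nearer to *Ctsb* than *Ctsd* did, and 60 nearer to *Ctsc* than *Ctss* did. Among all genes tested, those nearest to *Cst3* were *Kmo* (0.07), *Flt3* (0.07) and *Fgd2* (0.08), beside a median distance of 0.77 to all genes. The nearest to *Ctsh* were *Napsa* (0.08), *Unc93b1* and *Alox5ap*, of which *Napsa* encodes the aspartic protease napsin A. *Ctsw* was nearest to *Zap70* (0.04), the kinase of the T-cell receptor, followed by *Mical1* and *Lpcat4*. Of the other members, *Ctsb* was nearest to *Apaf1*, and *Ctsd* to *Lmf2*, *Ppp1ca* and *Prelid1*. *Ctsc* was nearest to *Pdia4*, *Lpgat1* and *Dhrs3*, *Ctss* to *Padi2*, *Eif4e3* and *Ero1lb*, *Ctsa* to *Parvg*, *Cfap43* and *Ttf1*, and *Cst7* to *AB124611*, *Zfp287* and *Fam105a*, all at distances of 0.04 to 0.10. *Ctsl* had no gene nearer than 0.13 (*4930404N11Rik*), followed by *D130058E05Rik* and *Arhgap6* (both 0.15).

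Cathepsins and cystatins outside the 10 genes gave few calls. Of 15 other cathepsins, 5 were tested and none passed (limma, 0 also at an unadjusted p under 0.05), with a median log2 difference of 0.03, or -0.30 under T-cell scaling. With the mouse as a block *Ctsz*, a carboxypeptidase, was higher (64.6 ± 7.76 and 77.0 ± 16.1 FPKM, limma adjusted p = 0.0338) and *Ctse* and *Ctsf* were lower. *Ctsg*, the cathepsin of neutrophil granules, was at 53.2, 295, 92.7 and 129 FPKM in the flow-through and at 56.8, 320.5, 90.8 and 125 FPKM in the enriched libraries, so it differed between mice and hardly within them. Neutrophil markers summed to 541, 3119, 1001 and 1455 FPKM in the flow-through and to 560, 3549, 1020 and 1520 FPKM in the enriched libraries, and 0 of 8 passed the test (limma, 0 also at an unadjusted p under 0.05, and 2 higher and 1 lower with the block). The placental cathepsins and close relatives, 8 genes, were listed at 0 in every library. Of 23 other cystatins and stefins, 21 had an entry and only *Cstb*, the cytosolic stefin B, was tested. It rose from 52.4 ± 7.07 to 73.8 ± 3.23 FPKM (log2 fold change 0.50, limma adjusted p = 0.00935, under T-cell scaling not called).

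Serpins of lymphocytes inhibit granule and lysosomal proteases from the cytosol. Of 7 genes, 6 were tested and 4 rose (*Serpinb6a*, *Serpinb6b*, *Serpinb9* and *Serpina3f*), with a median log2 fold change of 0.87, and all 6 were higher with the block. *Serpinb9*, the inhibitor of granzyme B, was at 7.95 ± 1.22 and 14.6 ± 0.79 FPKM (limma adjusted p = 0.00219). *Serpina3g*, which can inhibit cathepsins, was at 39.4 ± 13.2 and 75.7 ± 22.1 FPKM (log2 fold change 0.94, limma adjusted p = 0.0525, with the block 0.000243). Under T-cell scaling 2 of the 6 were called. Of 7 cytotoxic granule genes, 4 rose (*Gzma*, *Gzmb*, *Gzmc* and *Gzmm*), with a median of 0.89, and 4 were called under T-cell scaling too.

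Lists of other lysosomal genes had medians between 0.00 and 0.19 on the log2 scale as deposited. Of 6 other lysosomal peptidases, *Scpep1* (22.7 ± 2.74 to 46.5 ± 2.91 FPKM), *Ggh* and *Lgmn* rose and *Tpp1* fell, with a median log2 fold change of 0.19 that turned to -0.12 under T-cell scaling. *Lgmn*, the legumain that processes cathepsin precursors, was at 3.72 ± 1.41 and 8.05 ± 2.47 FPKM (limma adjusted p = 0.0356). Of 24 glycosidases, sulfatases and lipid enzymes, 7 rose, 2 fell (*Gaa* and *Idua*) and 15 did not pass, with a median of 0.13, or -0.19 under T-cell scaling. Of 12 membrane proteins 3 rose (*Laptm5*, *Slc15a3* and *Tmem192*) and 2 fell (*Mcoln1* and *Scarb2*), with a median of 0.08, scaled -0.23. Of 9 genes that sort enzymes to the lysosome *Gga2* fell (median 0.00, scaled -0.33). Among 4 regulators tested, *Tfeb*, the transcription factor of lysosomal genes, rose from 11.2 ± 2.16 to 19.7 ± 0.96 FPKM (log2 fold change 0.78, limma adjusted p = 0.00531) and *Flcn*, which restrains it, fell by 0.37 on the log2 scale (limma adjusted p = 0.0189). Neither was called under T-cell scaling.

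Cathepsins S and L act in the class II pathway of antigen presentation. Of 10 genes of this pathway, 6 rose, with a median log2 fold change of 1.44, or 1.15 under T-cell scaling, where the count was 6 as well. *Cd74*, the invariant chain, was at 97.7, 254, 227 and 317 FPKM in the flow-through and at 372, 782, 638 and 1027 FPKM in the enriched libraries (log2 fold change 1.68, limma adjusted p = 0.0182). All enriched libraries exceeded all flow-through libraries. B-cell markers summed to 21.2 to 58.5 FPKM in the flow-through and 26.6 to 67.0 FPKM in the enriched libraries, and 0 of 5 tested passed (limma, 0 also at an unadjusted p under 0.05, and 1 higher and 1 lower with the block). Of 9 NK-cell markers tested 7 rose, with sums of 74.3 to 199.8 and 231.6 to 475 FPKM. *Tyrobp*, which did not pass (limma adjusted p = 0.0525), gave 52.0 to 160 and 141 to 291 FPKM of these sums, and *Gzma* is also a granule gene above. Of 4 CD4 and regulatory T-cell markers (*Cd4*, *Ctla4*, *Foxp3* and *Il2ra*) all rose, with sums of 7.44 to 20.6 and 29.2 to 71.6 FPKM. Of 3 γδ T-cell markers *Blk* and *Trdc* rose, and the list had sums of 5.15 to 15.8 and 16.2 to 39.7 FPKM. The paper reports *Ncr1*, *Klrb1c* and *Blk* among genes raised in the IL-18Rαhi-enriched CD8+ T cells. Of 5 plasmacytoid dendritic-cell markers tested *Siglech* rose and *Ccr9* fell, with a median log2 fold change of 0.40, and with the block 3 were higher and 1 lower. The list had sums of 24.1 to 38.8 and 16.2 to 29.3 FPKM, of which *Ccr9* gave 9.69 to 21.6 and 3.29 to 6.27 FPKM. The part of these cells in the results on the members was not tested.

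Promoter sequence is shown for members whose profiles were close or whose regulators are given above. RefSeq windows (GRCm38.p6) of 300 bases, from 250 before to 50 after a transcript start, were found for 7 of the 10 members and were searched on both strands, beside 32544 windows of all genes. No window was found for *Ctsb*, *Ctsh* or *Ctsw*. The PU.1 motif GAGGAAGT, of the ETS family, was present in 3.11% of all windows and in those of *Ctsc* and *Ctss*. These genes have the second closest profiles among the members, although 60 of all tested genes lay nearer to *Ctsc* than *Ctss* did. A relation between the motif and the profiles was not tested. It lies 151 bases before the start of *Ctsc* (chr7:88277835-88278084, plus strand) and spans the start of *Ctss* (chr3:95526536-95526791, plus strand). Capitals mark the motif, which is read on the opposite strand in both.
Ctsc: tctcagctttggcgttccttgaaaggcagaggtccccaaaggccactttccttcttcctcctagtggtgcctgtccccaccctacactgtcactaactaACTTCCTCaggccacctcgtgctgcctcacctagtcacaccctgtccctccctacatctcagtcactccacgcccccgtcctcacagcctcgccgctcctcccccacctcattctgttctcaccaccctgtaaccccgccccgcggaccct
Ctss: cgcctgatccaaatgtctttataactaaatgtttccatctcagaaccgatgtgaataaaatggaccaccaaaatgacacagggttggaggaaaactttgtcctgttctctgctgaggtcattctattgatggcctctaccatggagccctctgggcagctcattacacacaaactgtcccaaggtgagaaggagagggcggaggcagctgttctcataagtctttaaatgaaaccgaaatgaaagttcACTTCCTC
The T-box motif AGGTGTGA (1.28% of windows) and the RUNX motif TGTGGTTT (1.79%) were found in no window of the 7 members searched. *Ctsb*, *Ctsh* and *Ctsw* could not be searched.

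The E-box CACGTG, the core of the motif bound by TFEB, was in 7.17% of all windows and in those of *Ctsa*, *Ctsd* and *Ctsl*. RefSeq starts need not be the outermost ones: those of *Ctsd* and *Ctsl* lie 211 and 370 bases inside the gene as GENCODE annotates it, and that of a further *Ctsa* window 900 bases inside. *Ctsd* had the core at 245 and 98 bases before the RefSeq start (chr7:142388057-142388077 and chr7:142387910-142387935, minus strand), and the site at 98 bases lies within the annotated gene. Capitals mark the core.
Ctsd site 1: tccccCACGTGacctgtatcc
Ctsd site 2: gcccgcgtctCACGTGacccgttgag
A match of letters is a description of the sequence and was not tested as a binding site.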

How the data were processed

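RNA of 8 libraries, 4 per fraction, was measured by stranded poly(A) RNA sequencing with paired reads. The authors filtered reads by quality, aligned them to mm10 with TopHat and computed the deposited FPKM values with Cufflinks 2.1.1, with corrections for multi-mapped reads and fragment bias and other options at their defaults, which do not use strand. The annotation release is not given in the sources used here. Values of genes that overlap or have close copies are therefore uncertain. FPKM values hold no whole reads, so depth was estimated from the smallest steps of genes under 0.2 FPKM with a transcript of at least 1500 bases, and no counting interval was formed. All 8 value columns had a sample. GENCODE M21, in which 98.9% of the identifiers were present, gave the coordinates.

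Groups came from the labels, which state that 4 mice each gave both fractions. The replicate number was taken to pair them: deviations from the group means correlated at 0.66, 0.59, 0.31 and 0.47 between libraries of the same number. Libraries of different number correlated at -0.60 to 0.41. The highest of these, flow-through replicate 2 with enriched replicate 4, exceeded the value of replicate 3. Each library correlated most with the library of its own number. Genes whose mean over 8 libraries reached 1 FPKM entered limma (version 3.58.1, R 4.3.3), fitted two-sided to log2(FPKM + 1) with a variance trend and no block, with Benjamini-Hochberg adjustment and a threshold of 0.05. Fold changes on this scale understate changes of low genes. The script was tested on simulated data. Alternatives were a pseudocount of 0.1, no filter or a filter of 5 FPKM, the mouse as a block, T-cell scaling, median scaling and leaving out each library. T-cell scaling with the block, and the block without both libraries of mouse 1, were chosen after seeing the data. Ratios were compared by exact permutation.

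The genes and lists were chosen with earlier results of these data known, so no list is independent support. Named beside the members were some of the 4 genes of highest mean in each list, partners by role, *Il18r1*, and the 3 genes of smallest distance to each member, except that some of those for *Ctsb* are not reported here. Other genes called in a list, and *Zbtb46*, were named after their values were seen.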

Additional observations from a re-analysis of the deposited data

Results flagged for a closer look

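In each group of 4 libraries, the gap of the highest or lowest library to its nearest neighbour was compared with the range of the group, and 3 of 26 groups of members and ratios had a library that stood apart by Dixon's 95% criterion, where chance gives about 1 in 20 groups, or 1.3. *Ctsl* was at 12.3 FPKM in flow-through replicate 1, while the rest of the flow-through was at 8.35 to 8.75 FPKM. *Ctsl* was also at 3.49 FPKM in enriched replicate 3, against 5.57 to 5.81 FPKM in the other enriched libraries. *Ctsw* was at 215 FPKM in enriched replicate 4, against 197.9 to 199.4 FPKM in the others, a small gap within a narrow group. Leaving out each of these libraries kept the call of *Ctsl*, and the call of *Ctsw* was lost without enriched replicate 4 (limma adjusted p = 0.0975).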

How the results depend on the processing

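With a pseudocount of 0.1 or a filter at 5 FPKM, all 10 members kept their direction and their side of the threshold, and with median scaling 9 did. With the mouse as a block, members called higher went from 4 to 8, and all genes called higher and lower from 1720 and 1664 to 2705 and 2763. The block without both libraries of mouse 1 gave 7 higher members and, over all genes, 2519 higher and 2475 lower. T-cell scaling gave 0 higher members and, over all genes, 522 higher and 927 lower. T-cell scaling with the block gave 1 higher member and 630 higher genes. Signs turned under T-cell scaling, with or without the block, for *Ctsa* (-0.0826) and *Cst7* (-0.0977), and for *Cst7* without flow-through replicate 1 (-0.0009, with a range of -0.0009 to 0.384 over the 8 libraries left out), and none of these values was called. Without a filter the call of *Ctsw* was lost (limma adjusted p = 0.0759). Leaving out 1 library at a time gave 2 to 5 higher members, the low count of 2 without flow-through replicate 3, enriched replicate 2 or enriched replicate 4, and 1 lower member in each fit. Over all genes it gave 1124 to 1802 higher and 940 to 1781 lower. The cause of these shifts was not tested, and each of these fits also had 1 library fewer. The log2 ratio differences were -0.49 to -0.34 for *Cst7*/*Ctsc*, 0.77 to 1.34 for *Cst7*/*Ctsl* and 0.85 to 1.20 for *Cst3*/*Cst7*, with exact permutation p of 0.0286 or 0.0571, the smallest that the smaller designs allow being 0.0286. As a block, sign flips within mice left the differences at -0.42, 1.14 and 0.98 with an exact p of 0.125, which 4 mice cannot go below. Depth is only estimated, and 4 libraries per fraction limit the precision.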
